A study of Mus musculus with 6 samples.

Results

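The 10 genes described here encode the carriers that move bile acids and the lipids of bile across the hepatocyte membrane. They were listed by name from the 22609 gene rows of the count files, with earlier results of these data known. All 10 were present, and all 10 were among the 12301 genes that passed the filter on low counts. RNA was measured by RNA-seq in hepatocytes, the main cell of the liver, isolated from wild-type C57BL/6 mice, all of them males aged 4 months. Cells received phosphate-buffered saline (PBS, 3 libraries) or LRG1 protein at 20 µg/mL (3 libraries), both for 16 h. LRG1 is a secreted, leucine-rich glycoprotein, and the study asked how it changes gene expression in hepatocytes. No source used here states where the protein came from or how pure it was, or whether each library had its own mouse or dish. The p-values therefore measure only the spread between these libraries, which may be technical. In bulk RNA, fewer cells of a type and less RNA per cell cannot be told apart.

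Bile acids made in the liver circulate between liver and gut. At the sinusoidal, blood-facing side of the hepatocyte, the sodium-dependent carrier Slc10a1 (NTCP) takes them up, and Abcc3 (MRP3) and Abcc4 (MRP4) can return bile acids and conjugates to blood. At the canalicular side, Abcb11 (the bile salt export pump) secretes bile salts, Abcb4 (MDR2) moves phosphatidylcholine to the outer leaflet, the Abcg5 and Abcg8 heterodimer exports cholesterol, and Abcc2 (MRP2) exports conjugated bilirubin and other organic anions. Atp8b1 (FIC1) is a flippase that returns phosphatidylserine to the inner leaflet and so keeps the canalicular membrane resistant to bile salts. Slc10a2 (ASBT) is the apical sodium-dependent carrier best known from the ileum and from bile duct cells.

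The sequences upstream of these genes are shown so that known motifs of the factors that control bile acid transport can be read beside the values. RefSeq promoter sequences of build GRCm38.p6 were at hand for 8 of the 10 genes. Below are the 250 bases before the start site of the 3 genes with the lowest fold changes, Slc10a2, Abcb4 and Abcb11, and of Abcc2, on the strand of each gene and 5′ to 3′. The last line holds the 109 bases between the divergent start sites of Abcg5 and Abcg8, the 2 genes whose fold changes were nearest to 0. Abcg8 had 2 windows, and the start site of the first was used. Its other window was chr17:84676052-84676301, on the plus strand. Capitals mark the matches to the motifs described after the sequences.
Slc10a2, chr8:5105288-5105537, minus strand: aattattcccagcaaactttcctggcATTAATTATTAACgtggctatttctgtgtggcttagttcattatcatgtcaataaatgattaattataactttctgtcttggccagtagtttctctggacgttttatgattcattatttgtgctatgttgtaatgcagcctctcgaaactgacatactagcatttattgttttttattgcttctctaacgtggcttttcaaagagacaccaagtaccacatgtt
Abcb4, chr5:8893471-8893720, plus strand: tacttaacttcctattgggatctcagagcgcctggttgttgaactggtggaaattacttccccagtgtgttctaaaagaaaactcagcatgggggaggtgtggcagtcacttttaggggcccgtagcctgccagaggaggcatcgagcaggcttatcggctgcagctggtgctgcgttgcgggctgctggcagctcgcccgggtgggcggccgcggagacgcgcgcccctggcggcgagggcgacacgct
Abcb11, chr2:69342617-69342866, minus strand: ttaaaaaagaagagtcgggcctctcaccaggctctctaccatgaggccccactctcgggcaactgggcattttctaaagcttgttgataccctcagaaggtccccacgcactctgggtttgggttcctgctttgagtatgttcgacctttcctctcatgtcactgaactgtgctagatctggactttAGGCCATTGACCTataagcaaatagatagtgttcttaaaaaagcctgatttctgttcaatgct
Abcc2, chr19:43782058-43782307, plus strand: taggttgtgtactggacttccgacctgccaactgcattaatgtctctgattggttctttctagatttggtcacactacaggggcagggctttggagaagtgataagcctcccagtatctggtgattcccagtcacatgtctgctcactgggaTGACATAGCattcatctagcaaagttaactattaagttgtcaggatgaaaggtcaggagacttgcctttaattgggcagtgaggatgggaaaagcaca
Abcg5 and Abcg8, chr17:84683012-84683120, plus strand: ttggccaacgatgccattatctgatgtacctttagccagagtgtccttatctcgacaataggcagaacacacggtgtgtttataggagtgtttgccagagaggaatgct

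The 5 motifs were searched on both strands of the 250 upstream bases, with positions counted back from the start site. They were the inverted repeat of the bile acid receptor FXR (AGGTCANTGACCT), the direct repeats read by HNF4 (AGGTCANAGGTCA) and LXR (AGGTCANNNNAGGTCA), the HNF1 palindrome (GTTAATNATTAAC) and the antioxidant response element bound by NRF2 (TGACNNNGC). The motifs were chosen with the windows at hand. The first 3 share the letters AGGTCA, so their matches can overlap. For the first 4, 1 of the 12 fixed letters could differ. The element of NRF2 had to match fully. Abcb11 held an FXR repeat from -63 to -51 with 1 letter differing, a match found in 0.0791% of the 32851 mouse promoter windows of that length. Slc10a2 held an HNF1 palindrome from -224 to -212 with 1 letter differing, found in 0.189% of windows. Abcc2 held an antioxidant element from -98 to -90, and both windows of Abcc4 held one too, a match found in 10.2% of windows. The HNF4 and LXR repeats, found in 0.484% and 0.240% of windows, were in none of the windows of the 8 genes, and no motif matched the Abcb4 window or the bases between Abcg5 and Abcg8. Each match is a description of letters, and binding was not measured.

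In hepatocytes given LRG1, 9 of the 10 transporters were lower and none was higher. Over all 12301 tested genes, 51.4% were called, 25.8% lower and 25.5% higher. The 10 genes were chosen with earlier results of these data known, so the shares given here describe the list and do not test it. The median log2 fold change of the 10 genes was -1.02, against 0.0093 for all tested genes. Slc10a2 fell 10.2-fold and Abcb4 fell 6.56-fold. Those were the 11th and 40th lowest fold changes of all tested genes. Abcb11, Slc10a1, Abcc3, Abcc4 and Abcc2 fell by 1.83-fold to 3.56-fold, while Atp8b1 and Abcg8 were 1.36-fold and 1.28-fold lower. Abcg5 did not pass the threshold of 0.05 on the adjusted p. At least 2-fold lower were 5 of the 10, Slc10a2, Abcb4, Abcb11, Slc10a1 and Abcc3, against 5.43% of all tested genes. None was at least 2-fold higher, against 4.07%. The 3 LRG1 libraries lay wholly below the 3 PBS libraries for 9 of the 10, against 28.6% of tested genes, and wholly above them for none, against 29%.

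**Figure D1:**
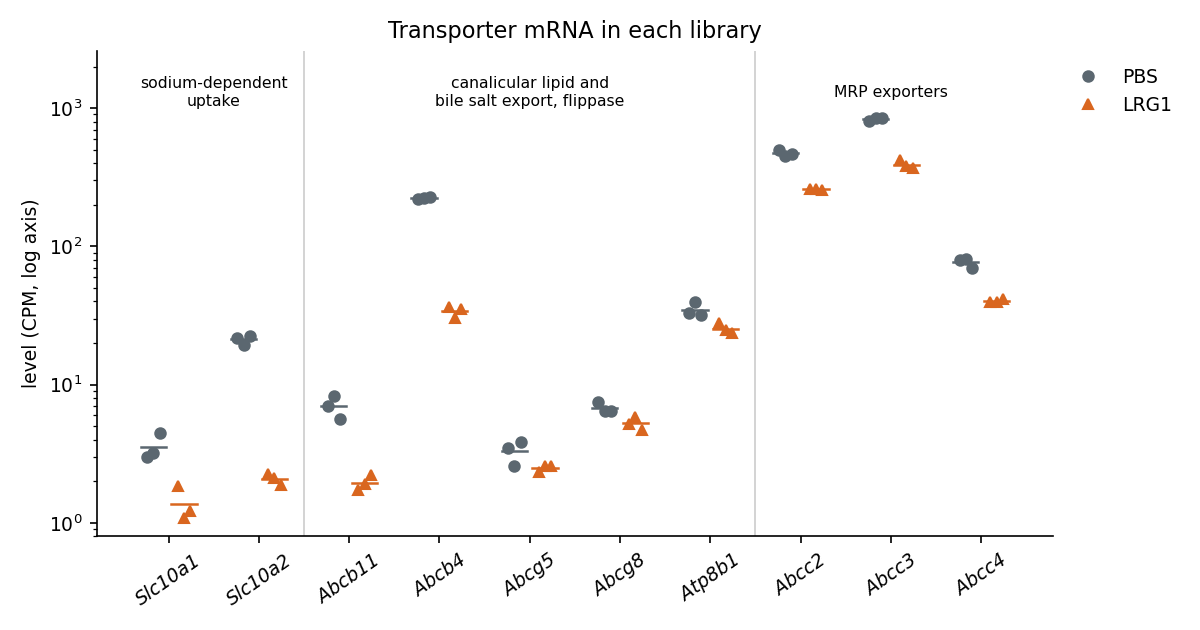
Level of each transporter mRNA in each library in CPM, scaled counts, on a log axis. Circles are the 3 PBS libraries, triangles the 3 LRG1 libraries and bars the group means, and the groups overlap only for Abcg5.

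The library behind each value held 18625748 to 23036332 gene counts, and 14663 to 14868 genes had at least 1 count. Levels are given in CPM, the count per 1e6 counts of the library's tested genes after TMM scaling. Defining hepatocyte markers were present in both groups, and some were lower with LRG1. The iron carrier transferrin (Trf) was the most abundant, at 22067 ± 777 CPM with PBS. It was called higher with LRG1, at 24127 ± 263 CPM. Albumin (Alb) was at 18466 to 19737 CPM with PBS and 18141 to 18871 CPM with LRG1. Of the 11 hepatocyte markers 5 were lower, 1 higher and 5 not called, against 25.8% lower and 25.5% higher over all tested genes. The 11 summed to 50764 to 52115 CPM with PBS and 49971 to 50957 CPM with LRG1. Trf and Alb made up most of those sums, which the fallen markers hardly move. The 5 lower ones, named after their values were seen, were Cps1, the urea cycle enzyme, which fell 4.32-fold, Fgb 1.72-fold, Apoa1 1.54-fold, Ahsg 1.53-fold and the factor gene Hnf4a 1.23-fold. The part of this fall in the transporter values was not tested. In the GENCODE M21 annotation Abcb11, Abcb4 and Abcc4 overlap small noncoding genes or pseudogenes, and no source used here states whether the counting used strand.

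The uptake carriers came first. Slc10a1, the main bile acid uptake carrier of hepatocytes in the intact liver, was scarce in these cultures, with 59, 59 and 84 reads in PBS replicates 1 to 3 and 37, 25 and 24 reads in LRG1 replicates 1 to 3. On the CPM scale the PBS libraries were at 2.99, 3.18 and 4.46 and the LRG1 libraries at 1.84, 1.08 and 1.21. The highest PBS library and the highest LRG1 library each stood somewhat apart, but the groups did not overlap. The log2 fold change was -1.37 (SE 0.23, adjusted p = 1.95e-05, n = 3 per group), with a 95% interval from -1.84 to -0.90. Leaving out single libraries moved it between -1.63 and -1.17.

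Slc10a2 was the more abundant of the pair with PBS. It stood at 21.8, 19.4 and 22.7 CPM in the PBS libraries and at 2.24, 2.12 and 1.86 CPM in the LRG1 libraries, or 1217 and 131 reads in all. Every LRG1 library was far below every PBS library. The log2 fold change was -3.35 (SE 0.12, adjusted p = 1.17e-16), with a 95% interval from -3.61 to -3.10. Since Slc10a2 is also a gene of bile duct cells, markers of those cells were set beside it. Of 12 bile duct markers, 7 were tested, of which 2 were lower (Krt19 and Aqp1), 3 higher (Sox9 and Slc4a2 among them) and 2 not called. Over all tested genes 25.8% were lower and 25.5% higher. Aqp1 and Sox9 were named after their values were seen. Krt19, a keratin of bile duct epithelium, fell 5.66-fold, from 18.4 ± 3.07 to 3.24 ± 0.248 CPM (SD, n = 3). Sox9, a transcription factor of the biliary lineage, rose by 0.68 on the log2 scale, to 84.3 CPM. Epcam, an epithelial adhesion molecule of bile ducts, was at 0.387 ± 0.0917 and 0.750 ± 0.262 CPM and was not tested. Cftr, the chloride channel of bile duct cells, had 1 read in all 6 libraries together. The 12 markers summed to 4641 to 4817 CPM with PBS and 4534 to 4849 CPM with LRG1, nearly all of it from Spp1 (osteopontin). The next most abundant was Slc4a2, an anion exchanger. The part of bile duct cells in the fall of Slc10a2 was not tested.

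The canalicular exporters of bile salt and phospholipid differed in abundance and both fell. Abcb11 had few reads, 138, 154 and 106 with PBS and 35, 44 and 44 with LRG1. Its levels were 6.98, 8.30 and 5.63 CPM in the PBS libraries and 1.74, 1.90 and 2.22 CPM in the LRG1 libraries, so that the lowest PBS library was still over every LRG1 library. The log2 fold change of Abcb11 was -1.83 (SE 0.17, adjusted p = 4.33e-09), with a 95% interval from -2.19 to -1.47. Abcb4 was far more abundant and its replicates were close together. The PBS libraries were at 219, 225 and 226 CPM and the LRG1 libraries at 36.4, 30.5 and 35.3 CPM. This gave a log2 fold change of -2.71 (SE 0.053, adjusted p = 2.04e-21), with a 95% interval from -2.82 to -2.60. The related genes Abcb1a and Abcb1b, which encode drug-exporting P-glycoproteins, went the other way, Abcb1a being named after its values were seen. Abcb1a rose from 13.0 ± 0.405 to 16.6 ± 0.592 CPM and Abcb1b from 26.5 ± 2.59 to 45.0 ± 2.06 CPM. How the authors' counting treated reads that match more than one of these relatives was not stated in any source used here.

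The sterol exporters changed least. Abcg5 was at 3.49, 2.59 and 3.82 CPM with PBS and at 2.34, 2.59 and 2.57 CPM with LRG1. PBS replicate 2 fell within the range of the LRG1 libraries. The log2 fold change of Abcg5 was -0.40 (SE 0.18, adjusted p = 0.0725), with a 95% interval from -0.78 to -0.021. That interval, which is not adjusted for the number of genes tested, left out 0, while the adjusted p missed the threshold at 47 to 72 reads per library. Without PBS replicate 2 the log2 fold change of Abcg5 was -0.54 (adjusted p = 0.0205), and without PBS replicate 3 it was -0.28 (adjusted p = 0.284). Those were the extremes over the 16 alternatives, and Abcg5 was called only without PBS replicate 2. Its partner Abcg8 was at 7.44, 6.47 and 6.42 CPM with PBS and at 5.23, 5.83 and 4.74 CPM with LRG1. The groups did not overlap, but the gap between the nearest libraries was small. Abcg8 had a log2 fold change of -0.36 (SE 0.13, adjusted p = 0.0241). Its call was lost without PBS replicate 1 (adjusted p = 0.117), without LRG1 replicate 1 (adjusted p = 0.0552), without LRG1 replicate 3 (adjusted p = 0.113) and with DESeq2 (adjusted p = 0.0843). Its adjusted p lay between 0.0154 and 0.117 in the 16 alternatives. Abcg5 and Abcg8 overlap on opposite strands in the GENCODE M21 annotation, so with the strand setting unknown the split of reads between them is uncertain.

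The flippase gene Atp8b1 fell modestly. Its levels were 32.7, 39.6 and 31.6 CPM with PBS and 27.9, 24.8 and 23.5 CPM with LRG1. PBS replicate 2 was the highest library, and all 3 LRG1 libraries were below all 3 PBS libraries. The log2 fold change was -0.45 (SE 0.082, adjusted p = 6.61e-05), with a 95% interval from -0.62 to -0.28. Tmem30a encodes the subunit that Atp8b1 needs to leave the endoplasmic reticulum. It was 1.08-fold higher, at 152 ± 2.66 CPM with PBS and 164 ± 10.9 CPM with LRG1 (adjusted p = 0.0403). This small call was lost without PBS replicate 1, PBS replicate 3, LRG1 replicate 2 or LRG1 replicate 3 (adjusted p = 0.105, 0.0985, 0.138 and 0.220). DESeq2 and a fit with a replicate block did not make it either (adjusted p = 0.0761 and 0.0635).

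The 3 multidrug resistance proteins were the most abundant group and fell by similar factors. Abcc2, the canalicular one, stood at 501, 448 and 469 CPM with PBS and at 259.6, 259 and 258 CPM with LRG1. Abcc3, at the blood side, stood at 811, 854 and 854 CPM with PBS and at 418, 383 and 366 CPM with LRG1. Abcc4, also at the blood side, stood at 79.9, 80.5 and 69.6 CPM with PBS and at 39.5, 39.6 and 41.4 CPM with LRG1. For none of the 3 did any LRG1 library reach the PBS range, and the gap was several times the spread within a group. The log2 fold change of Abcc2 was -0.87 (SE 0.041, adjusted p = 1.63e-14). That of Abcc3 was -1.11 (SE 0.044, adjusted p = 7.15e-16), and that of Abcc4 was -0.93 (SE 0.058, adjusted p = 2.10e-12).

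**Figure D2:**
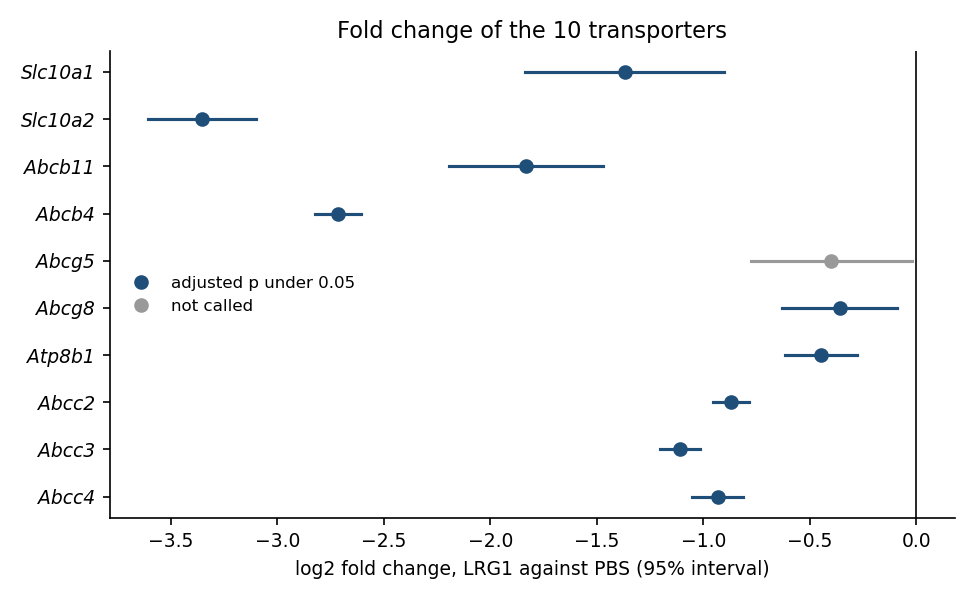
Log2 fold change of each transporter with its 95% interval from the edgeR fit, in the order of role. Slc10a2 and Abcb4 lie lowest, the 3 Abcc genes lie between -1.11 and -0.87, and the interval of Abcg5 ends at -0.021.

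To compare levels between genes, CPM was divided by the length of the longest protein-coding transcript in GENCODE M21. On this scale of CPM per kb, Abcc3 was highest with PBS at 168, followed by Abcc2 at 58.9, Abcb4 at 54.7 and Abcc4 at 13.4. Atp8b1 and Slc10a2 followed at 5.16 and 5.12, and their library ranges overlapped. Slc10a1 at 2.02 and Abcg8 at 1.85 overlapped as well, as did Abcg5 at 1.40 and Abcb11 at 1.39. So the bile salt export pump and the main uptake carrier were among the scarcest of the 10 already in the PBS cells, and Abcc3 and Abcc2 the most abundant. With LRG1, Abcc3 and Abcc2 stayed first, at 77.7 and 32.2 CPM per kb. Abcb4 came to 8.36, close to the 7.03 of Abcc4, and lengths summed over all annotated exons placed it below Abcc4 and Atp8b1. Slc10a2 dropped to 0.499 CPM per kb, below Slc10a1 at 0.787, with only Abcb11 lower at 0.389.

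**Figure D3:**
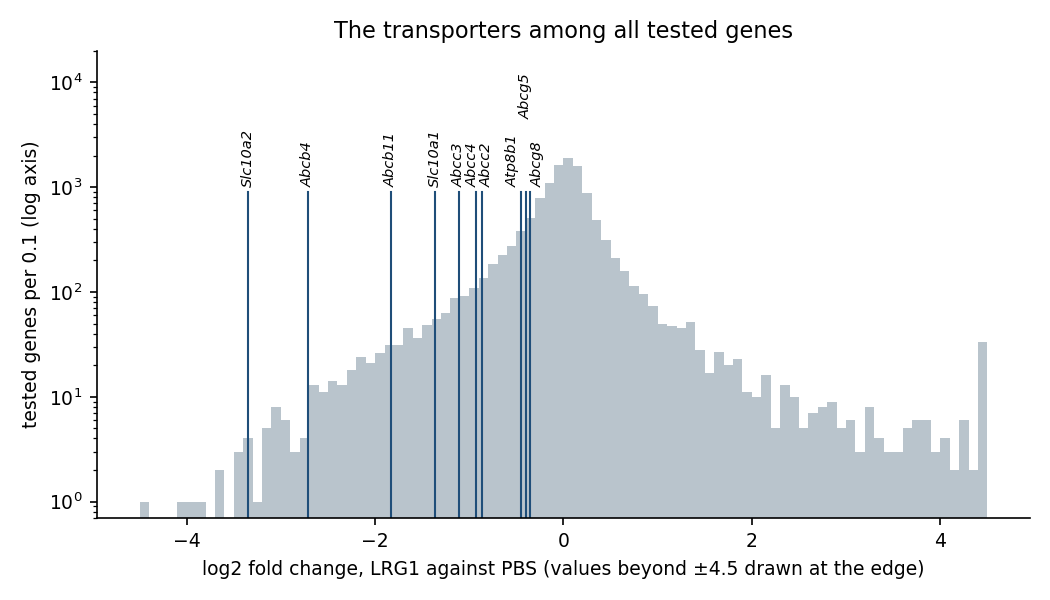
Distribution of log2 fold changes of the 12301 tested genes, with the number of genes per bin on a log axis. Vertical lines mark the 10 transporters, all of which lie below 0, Abcg5 included, which was not called.

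Unequal change between partners was read from count ratios within each library, which no scaling between libraries can alter. For 6 pairs an exact two-sided permutation test over the 6 libraries was used, whose smallest possible p is 0.1. The ratio of Abcb4 to Abcb11 reads was 31.3, 27.1 and 40.2 with PBS and 20.9, 16.0 and 15.9 with LRG1. It was lower in all 3 LRG1 libraries, by 0.90 on the log2 scale (exact p = 0.1, adjusted p = 0.2 over the 6 pairs). Atp8b1 against Abcb4 went from 0.150, 0.176 and 0.140 to 0.765, 0.813 and 0.665. This was a 4.82-fold higher ratio with no overlap of the groups (exact p = 0.1, adjusted p = 0.2). The ratio of Abcc3 to Abcc2 was 1.62, 1.91 and 1.82 with PBS and 1.61, 1.48 and 1.42 with LRG1, which did not overlap either, by a narrow margin (exact p = 0.1, adjusted p = 0.2). Abcg5 to Abcg8, at 0.400 to 0.595 with PBS and 0.444 to 0.543 with LRG1, overlapped (exact p = 1). Abcc4 to Abcc2 also overlapped (exact p = 0.7), as did Slc10a1 to Abcb11 (exact p = 0.4). With so few libraries none of the 6 could pass 0.05.

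**Figure D4:**
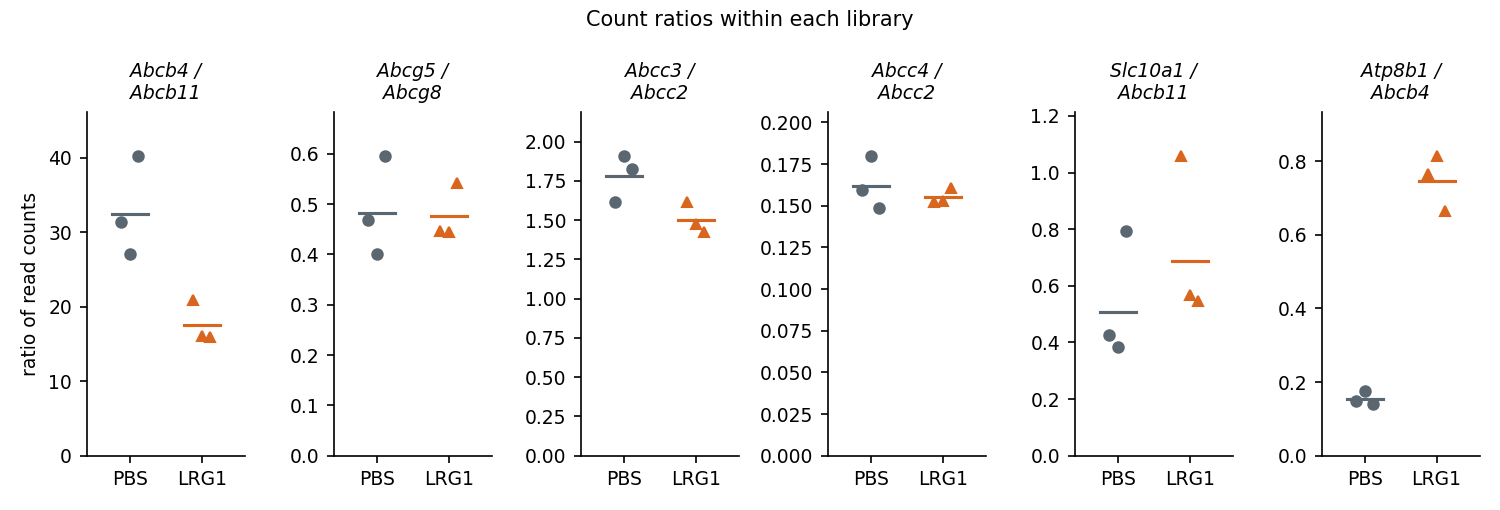
Ratio of read counts of 2 transporters within each library, on linear axes from 0. Circles are PBS libraries, triangles LRG1 libraries and bars geometric means, and the groups separate for Abcb4 to Abcb11, Abcc3 to Abcc2 and Atp8b1 to Abcb4.

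Other carriers of bile acids, anions and sterols in hepatocytes were less uniform. Of 15 listed, 10 were tested, of which 7 were lower, 2 higher (Abcb1a and Abcb1b) and 1 not called, with a median log2 fold change of -0.38. For this list and the related lists below, the shares over all tested genes were 25.8% lower and 25.5% higher. Slco1b2, a sodium-independent uptake carrier of the OATP family, fell 3.09-fold, from 4.24 ± 0.570 to 1.38 ± 0.261 CPM. Slco2b1 of that family was lower too, from 1.18 ± 0.291 to 0.382 ± 0.0573 CPM. Slco1a1, also of that family and more abundant, was the 1 not called, at 9.21 ± 0.565 and 8.43 ± 1.02 CPM (adjusted p = 0.370). Slco2b1 and Slco1a1 were named after their values were seen. Abca1, which loads cholesterol onto apolipoprotein A-I, fell 1.85-fold. Atp7b, the copper exporter of hepatocytes, fell 2.16-fold. The subunits of the basolateral bile acid exporter OSTα/OSTβ were nearly absent. Slc51a, listed under its older symbol Osta, had 0 reads in every library, which allows up to 0.130 to 0.162 CPM. Slc51b, listed as Ostb, had 10 reads with PBS and 18 with LRG1 in all and was not tested.

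Genes that anchor and deliver these carriers at the canalicular membrane split. Of 13 listed and tested, 6 were lower, 4 higher and 3 not called, with a median of -0.021. The share of higher genes was near the 25.5% of all tested genes. Pdzk1, a scaffold that binds the tails of membrane transporters, fell 4.40-fold, from 8.61 ± 0.718 to 1.94 ± 0.206 CPM. Ezr (ezrin) fell 1.98-fold, Slc9a3r1, the scaffold NHERF1, 1.75-fold, and Cgn, the tight junction protein cingulin, 1.52-fold. The 4 higher genes rose by at most 1.21-fold. Tmem30a, described above, was among them, as were Myo5b and Rab11a, which were named after their values were seen. Myo5b, a motor of recycling vesicles, kept its call in every alternative. Rab11a, whose product works with Myo5b, lost its call without PBS replicate 1, PBS replicate 3, LRG1 replicate 2 or LRG1 replicate 3. DESeq2 and the replicate block did not call Rab11a either. Its adjusted p reached 0.160 over the alternatives. The count of 4 was 2 without PBS replicate 1, and 1 without PBS replicate 3, LRG1 replicate 2 or LRG1 replicate 3.

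Nuclear receptors and other factors known to control the transporters were mostly lower. Only their RNA was measured, and their part in the transporter values was not tested. Of 20 listed, 19 were tested, with 14 lower, 2 higher and 3 not called, and a median of -0.32. Nr1h4 encodes the bile acid receptor FXR, which activates Abcb11 and Abcb4. It fell 1.32-fold, from 30.1 ± 1.59 to 22.7 ± 0.902 CPM. Nr0b2 encodes SHP, a repressor that FXR induces, and fell 2.53-fold at low levels, from 2.58 ± 0.632 to 1.02 ± 0.164 CPM. Nfe2l2 encodes NRF2, which is known to activate Abcc2, Abcc3 and Abcc4. It fell 1.94-fold, from 392 ± 2.60 to 202 ± 1.64 CPM. Keap1, the gene of the NRF2 inhibitor, was named after its values were seen. It was 1.35-fold lower, from 103 ± 3.59 to 76.5 ± 3.38 CPM. Nr1i2, the xenobiotic receptor PXR, fell 2.68-fold, Onecut1, the liver factor HNF6, 4.95-fold, and Cebpa 1.78-fold. The 2 higher genes, named after their values were seen, were Vdr and Nr1h2. Vdr, the vitamin D receptor, had 2 reads with PBS and 96 with LRG1, a ratio of 43.5 with a 95% counting interval from 11.7 to 364 that covers counting error only. Nr1h2, the LXR-beta gene, was 1.10-fold higher, and its call was lost without PBS replicate 2 or LRG1 replicate 1 (adjusted p = 0.103 and 0.188) and with DESeq2 (adjusted p = 0.0576).

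Genes known as targets of NRF2 and of LXR were read the same way. The part of these factors in the values of their targets was not tested. Of 15 NRF2 target genes, all tested, 12 were lower, 2 higher and 1 not called, with a median of -0.74. Gsta4 and Gstm1, glutathione transferases with close relatives, fell 5.15-fold and 2.31-fold, Gclc, which begins glutathione synthesis, 3.10-fold, and Ephx1, an epoxide hydrolase, 1.70-fold. The 2 higher ones, named after their values were seen, were Hmox1 and Gsr, each by at most 1.10-fold. The call of Hmox1 was lost without PBS replicate 2 or LRG1 replicate 2 (adjusted p = 0.199 and 0.201) and with the replicate block (adjusted p = 0.0699). That of Gsr was lost without LRG1 replicate 1 (adjusted p = 0.0571). Of 10 LXR targets of sterol handling, Abcg5 and Abcg8 among them, 9 were tested, with 6 lower, 1 higher and 2 not called, and a median of -0.36. Nr1h3, the LXR-alpha gene and its own target, fell 1.55-fold, Scd1, the stearoyl-CoA desaturase, 1.27-fold, and Pltp, a phospholipid transfer protein, 1.30-fold. Abca1 and Nr1h3 are also in other lists here. The 1 higher gene, named after its values were seen, was Abcg1, a cholesterol exporter of other cells, at 0.854 ± 0.180 and 1.76 ± 0.511 CPM.

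Of 15 genes that make and conjugate bile acids, 14 were tested, with 11 lower, 2 higher and 1 not called, and a median of -0.78. Baat, which joins bile acids to taurine or glycine, fell 8.55-fold and Cyp2c70, which makes the muricholic acids of mice, 7.99-fold. Acnat1, an acyltransferase related to Baat, fell 5.61-fold and Scp2, a sterol carrier, 1.96-fold. Cyp7a1, the rate-limiting enzyme, had 3 reads with PBS and 0 with LRG1 and was not tested. The 2 higher genes, named after their values were seen, were Cyp8b1 and Hsd3b7. Cyp8b1, which sets the share of cholic acid, was at 2.35 ± 0.412 and 3.41 ± 0.249 CPM. Its call was lost without PBS replicate 1 or LRG1 replicate 3 (adjusted p = 0.0779 and 0.0593) and with DESeq2 (adjusted p = 0.0754). That of Hsd3b7 was lost without LRG1 replicate 3 (adjusted p = 0.0530).

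**Figure D5:**
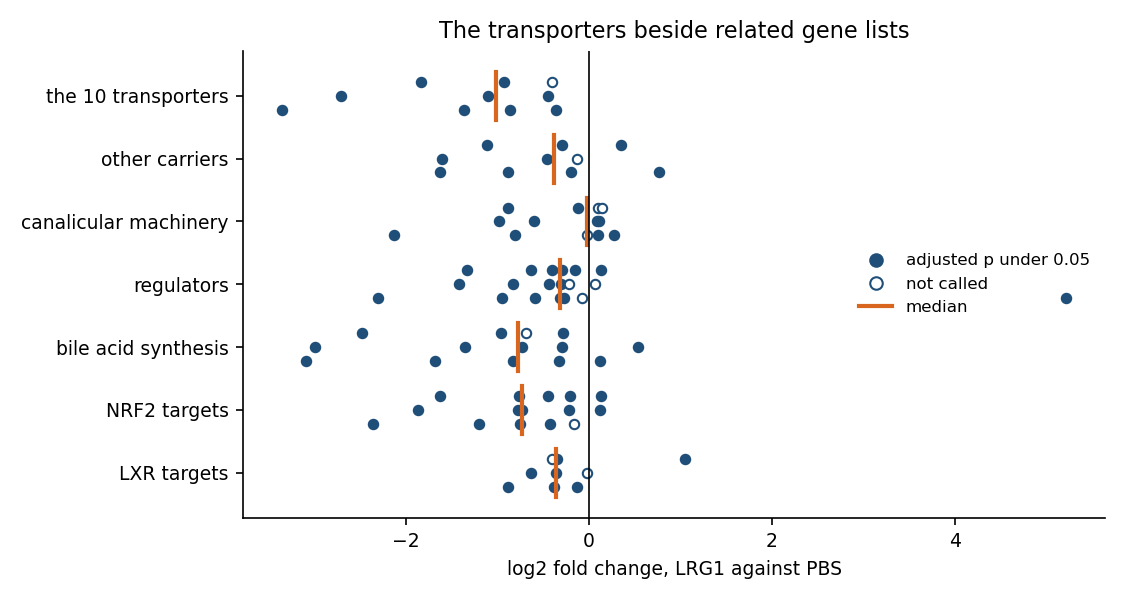
Log2 fold change of every tested gene of the 10 transporters and 6 related lists, with filled points for genes past the threshold and a bar at the median. The medians run from -1.02 for the transporters to -0.021 for the canalicular machinery, and the point at the right is Vdr.

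Most markers of other liver cells were at low levels, but Cd68 stood at 236 ± 24.0 CPM with PBS and 184 ± 13.1 CPM with LRG1. That is within the range of the 10 transporters. The counts called below can be read beside the 25.8% lower and 25.5% higher of all tested genes. The 10 macrophage markers summed to 225 to 270 CPM with PBS and 185 to 210 CPM with LRG1, most of it from Cd68. Lyz2 was next over both groups, though with PBS Cd5l stood above it, at 3.96 against 3.11 CPM, and Cd5l fell 2.06-fold. Of the 8 tested macrophage markers 2 were lower and 1 higher. The 10 endothelial markers summed to 63.2 to 67.4 and 86.9 to 88.4 CPM, led by Stab1 and Cdh5, with 3 of 8 tested lower and 1, Stab1, higher. The 11 stellate cell and fibroblast markers summed to 114 to 115 and 220 to 242 CPM, with 1 of 8 tested lower and 3 higher. Ecm1 led with PBS, at 59.3 CPM, followed by Acta2 at 24.0 and Col1a1 at 11.2 CPM. With LRG1 Col1a1, a fibrillar collagen chain, led at 110.2 CPM, a 9.82-fold rise that made up most of the higher sum, over Ecm1 at 72.5 CPM. No marker of these lists was at 0 in all libraries, but Timd4, a marker of resident macrophages, had 1 read in each group. The part of these cells in the transporter values was not tested.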

How the data were processed

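Each library has a file of unnormalized counts, deposited by the authors, with a row for each gene symbol. TopHat2, HTSeq and bcl2fastq, and build mm9, are named per the submitters' processing notes. No source used here gives versions, annotation or strand setting. Per the labels' protocols the kit selected poly(A) RNA, marked the strand and was read at 50 nt from a single end. The 5 HTSeq summary rows of each file were left out. Of the row totals, 58.2 to 59.3% were alignments that were not unique (1 read can give several), and 8.96 to 10.3% of unique reads fell in no gene. Replicates of a group differed by more than sampling noise (chi-square per degree of freedom 2.88 to 4.13). Each was counted as 1 sample, though this spread cannot show whether the libraries came from separate mice or dishes.

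Counts were filtered with filterByExpr (minimum count 10), scaled by TMM and tested with edgeR 4.0.16 (R 4.3.3), by the quasi-likelihood F test with treatment as the only term. The p-values of the 12301 tested genes were adjusted together by Benjamini-Hochberg. Adjusted p without another name refers to it. SE was derived from the F statistic. Gene coordinates of mm9 were not used. Promoter windows come from RefSeq (GRCm38.p6) and transcript lengths from GENCODE M21. The pipeline was tested on simulated counts. The members and lists were chosen with earlier results of these data known. All 10 transporters are named, then the 4 genes of smallest p per related list, 7 further genes (Nr1h4, Nr0b2, Nfe2l2, Tmem30a, Cyp7a1, Slc51a, Slc51b), and of each marker list the genes at 0, the 2 most abundant and Krt19, Epcam and Cftr. Alternatives were 3 other scalings, 2 other filters, DESeq2 1.42.0, limma-voom (limma 3.58.1), a robust fit, a replicate block, each library left out and, added after seeing the data, removal of GC and length trends. Values of some genes counted in the lists are not reported here.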

Additional observations from a re-analysis of the deposited data

How the results depend on the processing

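No alternative turned the direction of any of the 10 transporters, and 8 to 10 of them were called lower over the 16 alternatives, against 9 in the edgeR fit. None was called higher in any. The calls that changed were those of Abcg5 and Abcg8. The count of all genes called, 6317, ran from 5519 to 6592. Under other scalings the median log2 fold change of all genes lay between 0.0058 and 0.025. Deviations gave no sign that the replicate numbers pair the samples. Those of same-numbered libraries correlated at -0.12, -0.014 and -0.12, and those of other-numbered libraries at -0.035 to 0.14. With 3 libraries per group these values cannot settle whether the numbers mark a shared mouse or batch. With the replicate block 9 transporters were still called lower and Slc10a1 was at -1.36, while the higher calls of Tmem30a, Rab11a and Hmox1 were lost (adjusted p = 0.0635, 0.0649 and 0.0699).

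The counts of higher genes in the related lists were the least stable. DESeq2 gave 1 for the canalicular machinery against 4, 1 against 2 for the regulators and 1 against 2 for bile acid synthesis. The replicate block gave 1 for the canalicular machinery and 1 for NRF2 targets against 2. With single libraries left out, these counts ran from 1 to 3 for the machinery, 1 to 2 for regulators, 0 to 2 for bile acid synthesis and 1 to 2 for NRF2 targets. The cause was not tested. The log2 difference of the Abcg5 to Abcg8 ratio ran from -0.15 to 0.14 and that of Abcc4 to Abcc2 from -0.12 to 0.014. Genes near 0 changed sign too: with single libraries left out Stx3 ran from -0.075 to 0.0089, Klb from -0.42 to 0.063 and Lpcat3 from -0.059 to 0.011, and with GC and length trends removed Stx3 was at 0.030 and Lpcat3 at 0.040. Slc10a1, Abcb11, Abcg5 and Abcg8 rest on 24 to 154 reads per library, which limits their precision. Slc10a2 had 360 to 430 reads per PBS library but only 37 to 49 per LRG1 library.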

Other observations

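Some carriers and factors had too few reads to be tested but are given as levels. Slco1a4, an OATP uptake carrier, had 35 reads with PBS and 3 with LRG1, the former at 0.608 ± 0.176 CPM (SD, n = 3). Slc22a7, an organic anion carrier of the sinusoidal membrane, was at 0.703 ± 0.337 and 0.301 ± 0.0519 CPM. Nr1i3, the receptor CAR, was at 0.406 ± 0.172 and 0.177 ± 0.157 CPM, and Npc1l1, which takes cholesterol back from bile in other species, had 7 reads and 1 read. These genes were named after their values were seen, and no test was made of them.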
